A study of Homo sapiens with 11 samples.

Results

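Transcript levels with and without an shRNA against RUNX3 were compared in MV4-11, a human cell line of acute myeloid leukaemia known for its KMT2A rearrangement. The comparison used 8 of the 11 arrays of the series, and each condition had 1 array. The 4 arrays with the RUNX3 shRNA were shRUNX3, shRUNX2+shRUNX3, shRUNX1+shRUNX3 and the triple knockdown shRUNX1+shRUNX2+shRUNX3. The 4 arrays without it were shLuc (a luciferase control shRNA), shRUNX2, shRUNX1 and shRUNX1+shRUNX2. All of these cells had been transduced and then kept in 3 µM doxycycline for 24 hours, so the control carried an shRNA and met doxycycline too. The other 3 arrays came from cells kept with DMSO, Chb-M' or Chb-50 for 6 hours, each compound at 1 µM, and no shRNA or doxycycline is labelled for them. Taking each array with the RUNX3 shRNA minus the array that differed from it only in that shRNA gave 4 pairs, in which the rest of the shRNA load was none, RUNX2, RUNX1, or RUNX1 and RUNX2. Genes that lay in the same direction in all 4 pairs were the genes described: 1862 of the 12147 genes tested, or 15.3%, with 979 higher (8.06%) and 883 lower (7.27%). With only 4 pairs, some genes lie in 1 direction without any response to the shRNA. The 1862 are therefore not a count of genes that responded.

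RUNX3 belongs to a family of transcription factors with RUNX1 and RUNX2 that bind short DNA motifs through a shared Runt domain, and each pairs with CBFB, a partner that does not itself contact the DNA bases. In blood RUNX1 is needed for the first stem cells and for megakaryocytes and lymphocytes, while RUNX3 is best known for its part in cytotoxic T cells and in responses to TGF-beta. In myeloid leukaemia the members can stand in for one another at shared binding sites.

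The levels given are the deposited log2 values, so a difference of 1 is 2-fold, and the arrays carry no replicate of any condition. The median level was alike on every array, from 5.86 to 5.91. Of 10 genes fixed as defining MV4-11, 9 were measured and passed the filter, and their mean level was 7.46 to 7.70 with and 7.44 to 7.65 without the RUNX3 shRNA. Markers of T cells, NK cells and fibroblasts all stayed under the filter. Of the other marker lists, 2 of 3 measured B cell, 1 of 3 erythroid, 3 of 4 megakaryocyte and 2 of 4 epithelial genes passed it, and their part in the results was not tested. In these bulk samples fewer cells of a type and less RNA per cell cannot be told apart. Nothing in the labels says whether the arrays came from separate transductions, so p-values measure the spread between single arrays and not between replicates. That spread may be technical. In a fit with 1 term per shRNA it also holds any dependence of 1 shRNA on another.

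The promoters of the 3 genes with the largest smallest-pair difference in each direction are shown first, because RUNX factors act through promoters and enhancers. Sequences are from RefSeq on GRCh38.p14, 5′ to 3′ on the strand of the gene, from 250 bases before to 30 bases after the annotated start. Capitals mark the RUNX core letters TGTGGT or TGCGGT, searched on both strands in windows that run 50 bases past the start, and neither set of letters contains the other. PEAK3, VAPA and TMT1B were higher, and ANKFN1, SLC39A9 and NEUROG3 were lower, in all 4 pairs.
PEAK3 (chr19:2282146-2282425, minus strand): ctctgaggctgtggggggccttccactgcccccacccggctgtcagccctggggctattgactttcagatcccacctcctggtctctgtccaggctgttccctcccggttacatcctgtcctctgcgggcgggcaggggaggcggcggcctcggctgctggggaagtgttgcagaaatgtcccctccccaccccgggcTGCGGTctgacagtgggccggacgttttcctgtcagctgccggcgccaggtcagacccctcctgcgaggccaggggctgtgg
VAPA (chr18:9913766-9914045, plus strand): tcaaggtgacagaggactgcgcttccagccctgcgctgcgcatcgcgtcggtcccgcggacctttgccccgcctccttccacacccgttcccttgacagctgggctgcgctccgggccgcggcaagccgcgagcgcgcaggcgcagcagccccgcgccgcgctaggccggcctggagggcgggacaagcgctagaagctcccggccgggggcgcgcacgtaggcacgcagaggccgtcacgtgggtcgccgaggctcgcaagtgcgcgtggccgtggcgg
TMT1B (chr12:55681486-55681765, plus strand): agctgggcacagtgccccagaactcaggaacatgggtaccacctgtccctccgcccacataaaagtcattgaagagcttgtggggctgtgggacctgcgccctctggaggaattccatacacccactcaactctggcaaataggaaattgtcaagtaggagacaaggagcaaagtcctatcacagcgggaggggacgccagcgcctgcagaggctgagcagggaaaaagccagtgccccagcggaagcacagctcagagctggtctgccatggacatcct
ANKFN1 (chr17:56153225-56153504, plus strand): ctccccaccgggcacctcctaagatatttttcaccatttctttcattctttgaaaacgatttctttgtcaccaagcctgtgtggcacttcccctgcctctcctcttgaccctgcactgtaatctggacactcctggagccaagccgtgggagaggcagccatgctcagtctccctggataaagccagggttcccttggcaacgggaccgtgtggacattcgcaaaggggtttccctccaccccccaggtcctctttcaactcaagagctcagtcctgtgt
SLC39A9 (chr14:69398134-69398413, plus strand): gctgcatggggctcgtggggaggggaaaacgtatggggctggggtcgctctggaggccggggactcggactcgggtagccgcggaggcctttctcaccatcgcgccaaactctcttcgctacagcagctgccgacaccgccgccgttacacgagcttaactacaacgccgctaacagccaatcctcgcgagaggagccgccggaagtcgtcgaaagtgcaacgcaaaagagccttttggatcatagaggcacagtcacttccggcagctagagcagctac
NEUROG3 (chr10:69573393-69573672, minus strand): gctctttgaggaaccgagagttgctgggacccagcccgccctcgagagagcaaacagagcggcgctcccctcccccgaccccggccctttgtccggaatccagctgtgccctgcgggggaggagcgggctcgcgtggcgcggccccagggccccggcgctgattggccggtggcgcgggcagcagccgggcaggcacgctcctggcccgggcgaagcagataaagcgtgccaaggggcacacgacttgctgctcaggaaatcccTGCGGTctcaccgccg
PEAK3 held 1 match, which starts at base -52 relative to the start, and NEUROG3 held 1 match at base 15 after it. The windows of the other 4 genes held no match, which says only that these letters are not in these windows. Of all 27305 windows, 19.4% held at least 1 match. Among the genes tested that had a window, 137 of 778 (17.6%) of those higher in all 4 pairs and 147 of 686 (21.4%) of those lower in all 4 pairs held one, against 1742 of 9181 (19%) of all genes tested. For differences of at least 0.2 in every pair the counts were 6 of 28 (21.4%) for higher genes and 5 of 20 (25%) for lower genes. These shares lay near the share of all windows.

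RUNX3 itself was lower in all 4 pairs, but by very different amounts. Its level was 7.76 on shRUNX3, 7.87 on shRUNX2+shRUNX3, 7.65 on shRUNX1+shRUNX3 and, with all 3 shRNAs, 7.66. Without the RUNX3 shRNA it was 8.15 on shLuc, 8.24 on shRUNX2, 7.70 on the array labelled shRUNX1 and 8.37 on shRUNX1+shRUNX2. The array labelled shRUNX1 therefore lay inside the range of the arrays with the RUNX3 shRNA, although its label does not name that shRNA, and the other 3 arrays without it lay above all 4 with it. The DMSO array, with 8.30, lay among those 3. The means were 7.74 ± 0.105 with and 8.11 ± 0.291 without the RUNX3 shRNA (SD, n = 4 each), a difference of -0.38, which leaves 77.0% of the level. In an exact two-sided permutation test over 70 assignments p was 0.0857, where the smallest possible is 0.0286, and 0.171 after adjustment over 4 such tests. Pair by pair, RUNX3 differed by -0.39 (76.5% of the level left) between shRUNX3 and shLuc, by -0.36 (77.7%) between shRUNX2+shRUNX3 and shRUNX2, and by -0.71 (61.0%) between the triple knockdown and shRUNX1+shRUNX2. Between shRUNX1+shRUNX3 and the array labelled shRUNX1 the difference was only -0.05, or 96.9% of the level. Without the array labelled shRUNX1 the difference of the means was -0.52, and without both arrays of its pair it was -0.49. That array was singled out by its RUNX3 level, so these values are a description, with no test. Its pair compares arrays with nearly equal RUNX3 levels, and the main values that rest on it are also given without it.

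CBFB, the shared partner, also lay lower in every pair, by -0.03, -0.13, -0.16 and -0.08 in the order of pairs above. It averaged 9.26 ± 0.046 with and 9.36 ± 0.077 without the RUNX3 shRNA (SD, n = 4 each; exact permutation p = 0.0571, adjusted 0.171). RUNX2 was lower in 3 pairs (-0.14, -0.16 and -0.17) and higher in the pair of the triple knockdown (0.11). Its exact permutation p was 0.6, with no account taken of the RUNX2 shRNA (RUNX2 shRNA estimate -0.45). Its sign-flip p over the 4 pairs was 0.25, where the smallest possible is 0.125, so that test could not reach 0.05. RUNX3, CBFB and the RUNX1 cluster described next each had a sign-flip p of 0.125. RUNX1 could only be read on a cluster shared with LOC100506403, and that cluster averaged 4.11 ± 0.136 with and 4.28 ± 0.137 without the RUNX3 shRNA (SD, n = 4 each; exact permutation p = 0.143, adjusted 0.190). It lay lower in all 4 pairs, by -0.10, -0.21, -0.09 and -0.30. None of the 4 differences passed the permutation test.

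**Figure D1:**
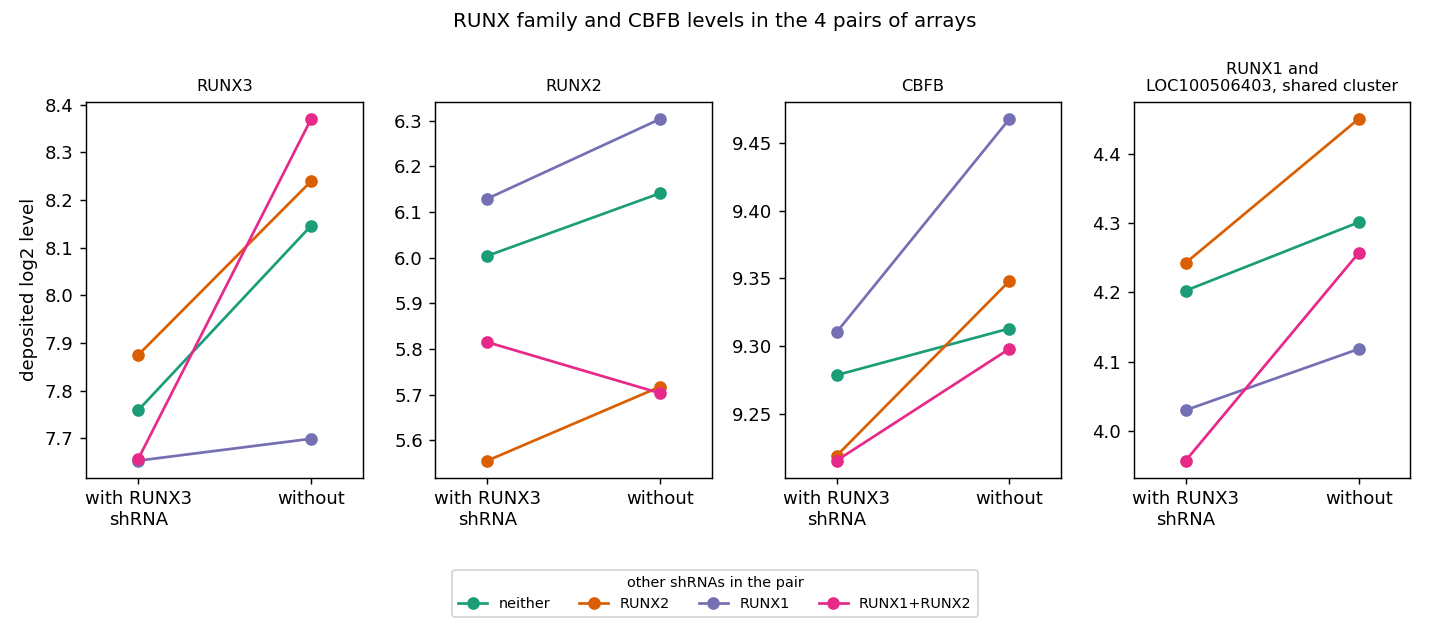
Deposited log2 levels of RUNX3, RUNX2, CBFB and the cluster shared by RUNX1 and LOC100506403, with each line joining the array with the RUNX3 shRNA (left) to the array of the same pair without it (right), coloured by the other shRNAs in the pair. The vertical scales differ between panels and do not start at 0. RUNX3 lies at 7.87 or lower on all 4 arrays with its shRNA, and the array labelled shRUNX1 sits at 7.70 on the right.

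No gene passed the limma test for the RUNX3 shRNA over all genes (0 of 12147, 0.0%). The smallest adjusted p was 0.206, and 1141 genes (9.39%) had an unadjusted p under 0.05, of which 555 (4.57%) were higher and 586 (4.82%) lower. That fit had 1 term per shRNA. With a RUNX1 by RUNX3 term added, limma again called 0 genes for the RUNX3 shRNA. The smallest adjusted p was then 0.125, and 1600 genes had an unadjusted p under 0.05. The consistent genes are therefore a description of direction over the 4 pairs, and the same pairs chose them. Most of the 1862 differed by little. At least 0.1 log2 units in every pair was reached by 184 higher genes (1.51%) and 178 lower genes (1.47%), and at least 0.2 by 41 higher (0.338%) and 35 lower (0.288%). On 196 genes (1.61%) all 4 arrays with the RUNX3 shRNA lay above all 4 without it, and on 192 genes (1.58%) all 4 lay below. Taken the same way over 4 pairs, the RUNX1 shRNA had 3390 genes in 1 direction (27.9%), 1810 of them higher (14.9%), and the RUNX2 shRNA had 930 higher (7.66%) and 770 lower (6.34%). These counts use the same 8 arrays, so they are given side by side and were not tested against each other.

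Named are the 14 higher and the 14 lower genes whose smallest pair difference was largest. PEAK3, a pseudokinase scaffold of the PEAK family, read 6.67, 6.60, 6.93 and 7.26 on shRUNX3, shRUNX2+shRUNX3, shRUNX1+shRUNX3 and the triple knockdown, against 5.79, 5.96, 5.98 and 5.85 on shLuc, shRUNX2, shRUNX1 and shRUNX1+shRUNX2. The groups did not overlap, and the lowest array with the RUNX3 shRNA stood 0.64 above its own partner. PEAK3 had an estimate of 0.97 (1.96-fold, SE 0.116, limma adjusted p = 0.206), the highest of all genes tested, and its DMSO level of 5.73 lay just below the arrays without the RUNX3 shRNA. VAPA, an endoplasmic reticulum protein that tethers the membranes of other organelles, read 8.09, 8.47, 8.89 and 9.20 with and 7.63, 7.97, 8.00 and 8.59 without the RUNX3 shRNA. Each array lay above its partner, by 0.46, 0.50, 0.89 and 0.61, yet the groups overlapped through the shRUNX1+shRUNX2 array alone. VAPA also lay higher with the other shRNAs, with estimates of 0.63 for RUNX1 and 0.40 for RUNX2 beside 0.62 for RUNX3. TMT1B, a thiol methyltransferase of the endoplasmic reticulum, read 6.86, 6.75, 7.03 and 7.62 with and 6.39, 6.35, 6.41 and 6.86 without the RUNX3 shRNA. Its highest array without the RUNX3 shRNA, shRUNX1+shRUNX2, equalled the shRUNX3 array to 2 decimals.

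ACSL1, which activates long-chain fatty acids with coenzyme A, had an estimate of 0.50 (pair differences 0.40 to 0.63). PITPNC1, a phosphatidylinositol transfer protein, had an estimate of 0.55 (0.32 to 0.86). PITPNC1 read 8.65, 8.79, 8.84 and 8.96 with and 8.32, 8.37, 7.97 and 8.36 without the RUNX3 shRNA, with no overlap and a RUNX1 estimate of -0.00. SPOPL, an adaptor of cullin ubiquitin ligases, had an estimate of 0.48 beside 0.65 for the RUNX1 shRNA. NT5C3B, a cytosolic nucleotidase, had an estimate of 0.49 with groups that did not overlap, beside a RUNX1 estimate of -0.23. FZD6, a Frizzled receptor for WNT ligands, read 5.59, 5.39, 5.39 and 5.59 with and 5.17, 4.83, 5.12 and 5.16 without the RUNX3 shRNA. These groups did not overlap either. The others of the 14 were the membrane protein MANSC1 (0.63), the chondroitin sulfotransferase CHST12 (0.55), the endosomal sorting nexin SNX10 (0.51), the secreted protease inhibitor SLPI (0.45), the mitochondrial nucleotide kinase AK3 (0.41) and the PDZ scaffold LIN7C (0.41). MANSC1 reached the filter on the triple knockdown alone, with 4.39, and lay between 2.61 and 3.68 on the other 7 knockdown arrays. SNX10 likewise reached it on arrays with the RUNX3 shRNA alone (3.71, 4.03, 4.15 and 4.50, against 3.26, 3.77, 3.69 and 3.66 without it), so both genes passed through the side where they were high. In all, 4 of the 14 had groups that did not overlap, beside 1.61% of all genes, and adjusted p ran from 0.206 to 0.37. A RUNX1 estimate of the same sign was found for 12 of the 14, with no share over all genes to set beside it. Nothing is read from either count, because the same arrays chose the 14.

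ANKFN1 had the lowest estimate of all genes tested. This gene, named for its ankyrin repeats and fibronectin type III domain, read 4.61, 4.23, 4.63 and 4.42 on the arrays with the RUNX3 shRNA, against 7.91 on shLuc, 5.23 on shRUNX2, 8.33 on shRUNX1 and 7.62 on shRUNX1+shRUNX2. The groups did not overlap, and the pair differences were -3.30, -1.0, -3.69 and -3.20, so that 14.4% of the level was left by the estimate of -2.80 (SE 0.444, limma adjusted p = 0.288). The shRUNX2 array stood apart from the other 3 arrays without the RUNX3 shRNA, and without it the estimate was -3.38 (SE 0.106, limma adjusted p = 0.000501), the only gene called for the RUNX3 shRNA under any left-out array. The DMSO, Chb-M' and Chb-50 arrays read 4.91, 4.17 and 3.97, which is near the arrays with the RUNX3 shRNA and far from 3 of the 4 without it. The low level was therefore shared with cells for which no shRNA is labelled, and the high level was seen on shLuc, shRUNX1 and shRUNX1+shRUNX2.

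TSC2, which with TSC1 restrains mTORC1 signalling, followed a like order of arrays. It read 6.87, 6.74, 6.97 and 6.90 with the RUNX3 shRNA, against 8.04 on shLuc, 7.23 on shRUNX2, 8.23 on shRUNX1 and 7.68 on shRUNX1+shRUNX2. The estimate was -0.93 (52.6% of the level, SE 0.129, limma adjusted p = 0.246), with no overlap, and DMSO read 6.57, below all 8 knockdown arrays. NEUROG3, a transcription factor of the endocrine pancreas, read 5.52, 5.34, 5.28 and 5.35 with and 6.04, 5.92, 6.33 and 5.84 without the RUNX3 shRNA (estimate -0.65, 63.5% of the level). Its DMSO level of 5.24 was likewise on the side of the arrays with the RUNX3 shRNA. SLC39A9, a zinc transporter of the ZIP family, behaved differently. It read 7.64, 7.46, 7.89 and 7.77 with and 8.33, 8.45, 8.41 and 8.36 without the RUNX3 shRNA, and the 3 arrays of the other treatments read 8.33, 8.42 and 8.33. All 7 arrays without the RUNX3 shRNA thus lay between 8.33 and 8.45 and above all 4 with it, with an estimate of -0.70 (61.7% of the level, SE 0.084, limma adjusted p = 0.206).

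Of the remaining lower genes, STK38, an NDR family kinase, had an estimate of -0.42, and DUSP10, a phosphatase of p38 and JNK kinases, had -0.49. PTPN14, a tyrosine phosphatase, had -0.64, and NRP1, a co-receptor for semaphorins and VEGF, had -0.50. F3, the tissue factor that starts coagulation, had -0.63, with a difference of -1.40 in the pair of the triple knockdown and -0.35 to -0.41 in the other 3, and its estimate was -0.41 without shRUNX1+shRUNX2. The list also held FCN2, a lectin of the complement system (-0.46), TBCA, a tubulin folding cofactor (-0.48), MTMR9 of the myotubularin family (-0.50) and the zinc finger protein THAP10 (-0.65). The aldehyde dehydrogenase ALDH3B2 (-1.07) varied most, from 3.60 to 5.14 with and from 4.13 to 6.53 without the RUNX3 shRNA, and its estimate was -0.43 without the shRUNX2 array. FCN2 read between 3.05 and 3.72 on the 8 knockdown arrays, under the filter level of 3.80, and passed through the Chb-M' array at 3.91. For 11 of the 14 the groups did not overlap, beside 1.58% of all genes, a count from which nothing is read because the same arrays chose the 14. Adjusted p ran from 0.206 to 0.579. ALDH3B2, F3 and NRP1 overlapped.

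In the DMSO array, 6 of the 14 higher genes (VAPA, ACSL1, SPOPL, NT5C3B, AK3 and FZD6) and 5 of the 14 lower genes (ANKFN1, NEUROG3, TSC2, ALDH3B2 and PTPN14) read nearer to the mean with the RUNX3 shRNA than to the mean without it. The transduced cells and the DMSO cells differ in transduction, doxycycline and time, and these cannot be told apart. The 979 higher and the 883 lower genes had a median difference between Chb-M' and DMSO of 0.01 and -0.00, against 0.02 for all genes tested. Those arrays had no part in the choice by direction, but they counted in the level filter, so a gene could be tested through them.

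**Figure D2:**
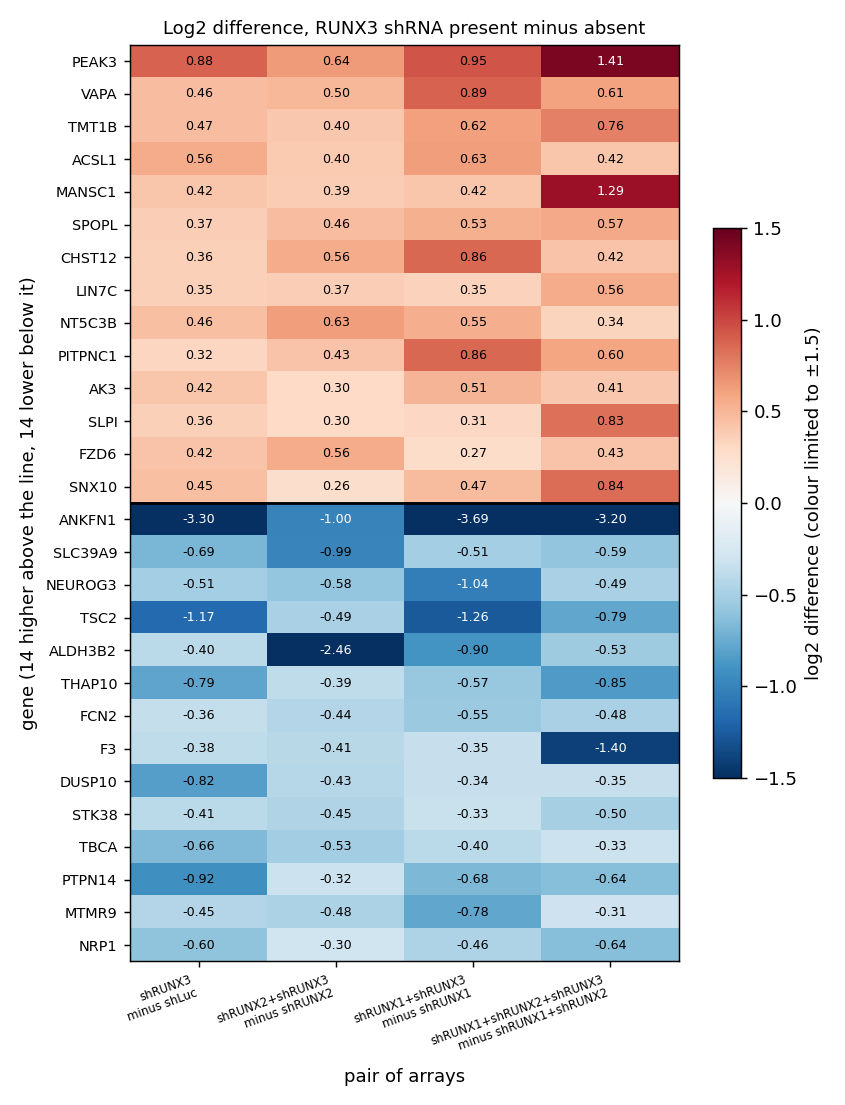
Log2 difference, array with the RUNX3 shRNA minus its partner without it, for the 14 higher (above the line) and 14 lower (below it) genes in the 4 pairs, with each value printed and the colour limited at 1.5 in either direction. PEAK3 differs by 0.64 to 1.41 and ANKFN1 by -1.0 or lower in every pair, and most others by less than 1.

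**Figure D3:**
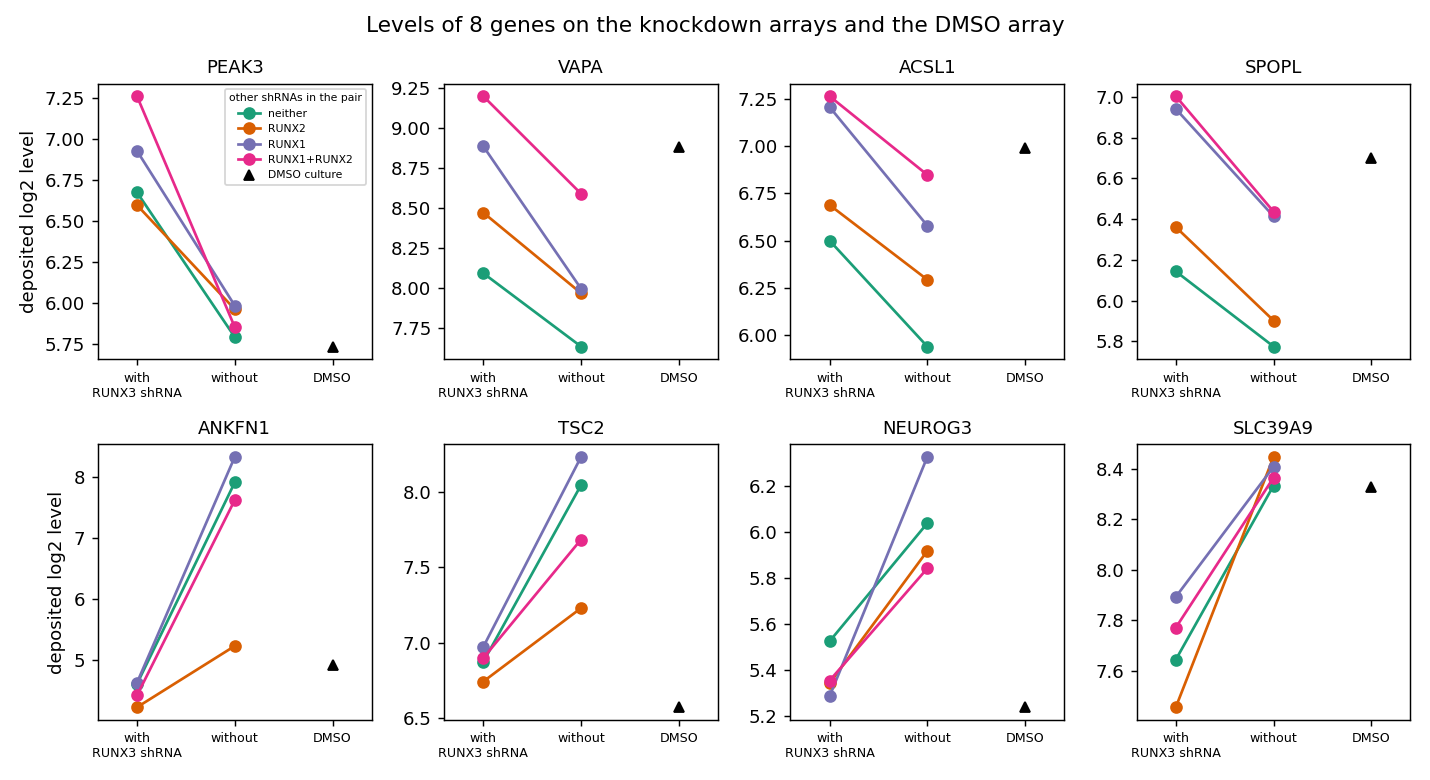
Deposited log2 levels of 4 higher and 4 lower genes, with lines joining the array with the RUNX3 shRNA (left) to its partner without it (middle), and the DMSO array as a triangle (right). The vertical scales differ between panels and do not start at 0. For ANKFN1, TSC2 and NEUROG3 the triangle lies near the arrays with the RUNX3 shRNA, and for PEAK3 and SLC39A9 near those without it.

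How far the RUNX3 shRNA difference depended on the RUNX1 shRNA was tested as an interaction, the mean difference in the 2 pairs with the RUNX1 shRNA minus that in the 2 pairs without it. Cell cycle genes lay lower with the RUNX3 shRNA in the pairs that also held the RUNX1 shRNA and near 0 in the others. No gene passed (0 of 12147, 0.0%), the smallest adjusted p was 0.249, and 1544 genes (12.7%) had an unadjusted p under 0.05, with 803 (6.61%) negative and 741 (6.1%) positive. In the list of S phase genes and E2F targets, all 29 tested members had a negative interaction, with a median of -0.71 beside 0.02 for all genes, and 28 of 29 had an unadjusted p under 0.05. In the G2 and mitosis list all 28 were negative (median -0.67), 22 of them at an unadjusted p under 0.05, and in the replication-dependent histones 8 of 9 were negative (median -0.58), 7 of them so. These members are expressed together and are not independent of each other.

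E2F8, a repressor of the E2F family, shows the pattern in single arrays. It read 7.43 on shRUNX3 and 7.29 on shRUNX2+shRUNX3, but 5.78 on shRUNX1+shRUNX3 and 5.95 with all 3 shRNAs, against 7.57 on shLuc, 7.45 on shRUNX2, 7.50 on shRUNX1 and 7.07 on shRUNX1+shRUNX2. Of the 8 knockdown arrays, only the 2 with both shRNAs lay under 7, while DMSO read 6.91, and the interaction was -1.27 (SE 0.197, limma adjusted p = 0.249). CCNE2, a cyclin of S phase entry, read 7.88, 7.87, 6.32 and 6.63 with and 7.88, 8.00, 7.90 and 7.53 without the RUNX3 shRNA (interaction -1.18, limma adjusted p = 0.249). TOP2A, the topoisomerase of dividing cells, read 10.39, 10.41, 9.25 and 9.41 with and 10.49, 10.33, 10.41 and 10.06 without it (interaction -0.89, limma adjusted p = 0.249). Over the S phase list the pair differences ran from -0.27 to 0.33 between shRUNX3 and shLuc and from -0.16 to 0.29 between shRUNX2+shRUNX3 and shRUNX2. They ran from -1.72 to -0.26 between shRUNX1+shRUNX3 and shRUNX1 and from -1.12 to -0.20 between the triple knockdown and shRUNX1+shRUNX2. In the mitosis list they ran from -0.49 to 0.12 and from -0.07 to 0.24 in the pairs without the RUNX1 shRNA. In the pairs with it they ran from -1.38 to -0.64 and from -0.66 to 0.01. The range of the triple knockdown pair thus overlapped that of shRUNX3 and shLuc. The medians of the mitosis list were -0.10 and 0.07 in the pairs without the RUNX1 shRNA and -0.94 and -0.41 in those with it.

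The 2 pairs with the RUNX1 shRNA include the array labelled shRUNX1. Without it the median interaction was -0.57 for the S phase list (29 of 29 negative, 25 at an unadjusted p under 0.05), -0.47 for the mitosis list (27 of 28 negative, 14) and -0.33 for the histones (7 of 9 negative, 3). Lower in all 4 pairs were 6 of 29 genes in the S phase list, 3 of 28 in the mitosis list and 2 of 9 histones (H1-5 and H1-2), and none was higher, beside 7.27% of all genes lower. The 6 S phase genes were E2F8, GINS1, GINS2, CCNE1, RRM1 and MCM5, which act in replication and S phase entry. The 3 mitosis genes were NUSAP1, TTK and HMMR, which act at the mitotic spindle. In the pairs without the RUNX1 shRNA the differences of these 9 genes lay between -0.28 (TTK, shRUNX3 against shLuc) and -0.00 (CCNE1, shRUNX3 against shLuc).

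**Figure D4:**
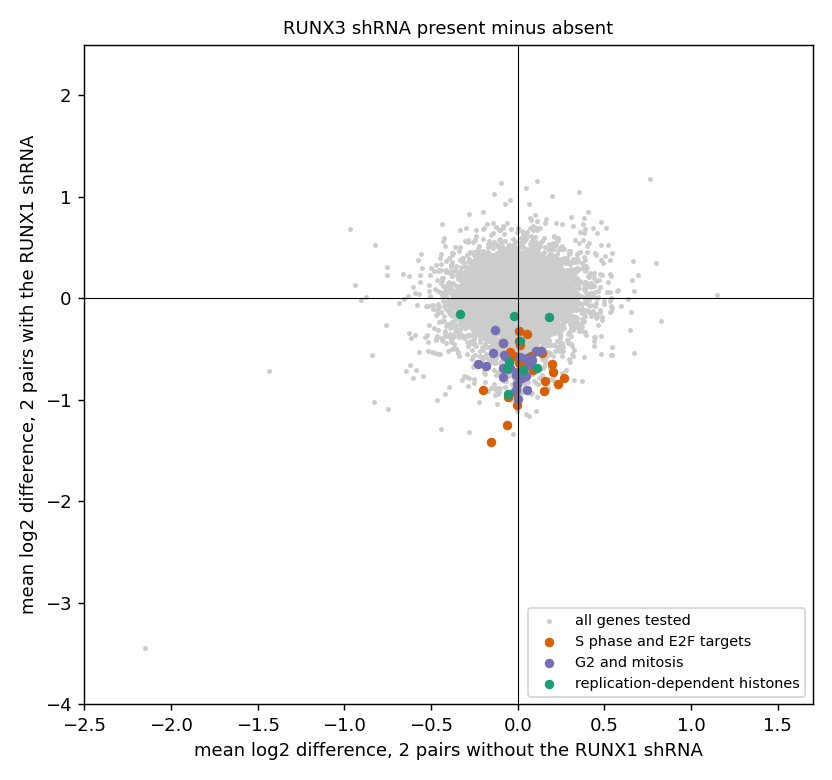
Mean log2 difference, RUNX3 shRNA present minus absent, in the 2 pairs without the RUNX1 shRNA (horizontal) and in the 2 pairs with it (vertical), for all 12147 genes tested (grey) and for 3 cell cycle lists (coloured). The coloured genes spread around 0 from left to right and lie below 0 on the vertical axis, and the lone grey point at the lower left is ANKFN1 (-2.15 and -3.45).

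The genes of smallest p for the interaction went in both directions, each at limma adjusted p = 0.249. Positive were CD84, a receptor of the SLAM family (1.16), the immunoglobulin superfamily receptor IGSF6 (1.24), the serotonin receptor HTR2B (1.01), the zinc finger protein ZNF189 (0.82), CDC37L1, a relative of the HSP90 cochaperone CDC37 (0.72), and WDR31 (0.72). CD84 read 3.81 and 3.80 on shRUNX3 and shRUNX2+shRUNX3 but 5.24 and 5.26 on shRUNX1+shRUNX3 and the triple knockdown, against 4.08, 4.40, 4.44 and 4.60 on the 4 arrays without the RUNX3 shRNA. It was lower in both pairs without and higher in both pairs with the RUNX1 shRNA, as were 1002 genes (8.25%), while 843 genes (6.94%) went the opposite way. Negative were TCF19 (-1.08), E2F2 of the E2F family (-1.05), the galectin LGALS12 (-0.95), the nucleoside transporter SLC29A1 (-0.93), the calcium sensor NCS1 (-0.86) and the microtubule-binding protein MAPRE2 (-0.76). SLC29A1 read 8.12, 8.13, 7.07 and 7.06 with and 7.92, 7.90, 7.89 and 7.68 without the RUNX3 shRNA. Without the array labelled shRUNX1 the interactions of these 12 genes kept their direction, such as 1.14 for CD84 and -0.83 for SLC29A1, each with limma adjusted p = 0.401. The same arrays chose these 12 genes, so their kept direction says nothing of stability. In SLC29A1 the arrays with RUNX1 and RUNX3 shRNAs together were low, and the other 6 lay between 7.68 and 8.13.

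To see which differences were unlike between the RUNX3 and the RUNX1 shRNA, the RUNX3 estimate minus the RUNX1 estimate was tested. This contrast keeps the signs and does not say which of the 2 is larger in size. No gene passed (0 of 12147, 0.0%), the smallest adjusted p was 0.327, and 898 genes (7.39%) had an unadjusted p under 0.05, with 357 (2.94%) positive and 541 (4.45%) negative. That split depended on scaling, since with each array centred on its median it was 456 positive and 431 negative. The most negative by p included SLC39A9 (-0.84), PTPN14 (-0.89), the leukocyte cytoskeletal protein LSP1 (-0.74) and the mitotic kinase NEK7 (-0.62). The most positive included the transporter SLC4A11 (0.54), FNDC5, the precursor of irisin (0.71), VWCE (0.54) and GLMN, a regulator of cullin ligases (0.47). Each had limma adjusted p = 0.327. FNDC5 read 4.06, 4.09, 3.78 and 3.59 with and 3.64, 3.74, 3.27 and 3.47 without the RUNX3 shRNA, and LSP1 read 4.18, 4.29, 4.91 and 4.87 with and 4.42, 4.59, 5.05 and 4.91 without it. Their RUNX1 estimates had the opposite sign to their RUNX3 estimates, with -0.36 for FNDC5 and 0.56 for LSP1, and the contrast adds the 2 sizes. For LSP1 (RUNX3 estimate -0.18) and GLMN (RUNX3 0.18, RUNX1 -0.29) the RUNX1 estimate was the larger in size. Of the 14 lower genes 6 had a RUNX1 estimate of the same sign, against 12 of the 14 higher genes, and this difference was not tested. Nothing is read from it, because the same arrays chose both sets and no share over all genes is given.

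Calprotectin and a neutrophil protease lay lower over the 4 pairs, in a list of 15 tested S100 and granule genes where 3 were lower, 2 were higher and none passed the test over all genes. S100A8 read 5.61, 5.73, 5.66 and 5.67 with and 5.80, 6.37, 5.90 and 6.32 without the RUNX3 shRNA (estimate -0.43, SE 0.0972, limma adjusted p = 0.336). S100A9, the other calprotectin subunit, read 5.06, 5.15, 4.69 and 4.86 with and 5.24, 5.53, 5.52 and 5.59 without it (estimate -0.53, SE 0.111, limma adjusted p = 0.334). CTSG, cathepsin G of neutrophil granules, had an estimate of -0.26. In these 3 genes the groups did not overlap, and their DMSO levels of 5.49, 4.79 and 9.63 lay below all arrays without the RUNX3 shRNA. Neutrophil elastase ELANE (0.11) and the granule proteoglycan SRGN (0.06) were the 2 higher members, and the list median was -0.07, beside 0.01 for all genes.

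Known targets of the RUNX and CBFB complex in myeloid cells showed no common direction. Of 12 tested, 2 were higher in all 4 pairs and none lower, with a median estimate of 0.03. The 2 were ELANE and ITGA4, the alpha chain of the integrin VLA-4, which read 8.95, 9.13, 9.47 and 9.60 with and 8.73, 8.72, 9.22 and 9.10 without the RUNX3 shRNA (estimate 0.34, SE 0.0677, limma adjusted p = 0.334). ITGA4 also lay higher with the RUNX1 shRNA (0.47). CSF3R, the receptor for granulocyte colony-stimulating factor, had an estimate of 0.26 and was higher in 3 pairs. The kinase PIM1 (-0.31) and the cyclin CCND3 (-0.34) had negative estimates beside more negative interactions of -0.90 and -0.69 (limma adjusted p = 0.249 each, and -1.01 and -0.74 with adjusted p = 0.401 each without the array labelled shRUNX1). PIM1 read 7.85, 7.61, 6.66 and 6.60 with and 7.57, 7.60, 7.32 and 7.45 without the RUNX3 shRNA. Of 18 genes linked to RUNX3 in other cell types, 9 passed the filter, and the only one in 1 direction was the BCL2 relative BCL2L11, with 0.08. In this list CDKN1A, the cyclin-dependent kinase inhibitor p21, had an estimate of -0.25 and differed by 0.09 in the pair of shRUNX3 and shLuc and by -0.23 to -0.60 in the other 3.

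In the TGF-beta pathway, where RUNX3 is known as a partner of SMAD proteins, 1 of 15 genes was higher and 2 were lower in all 4 pairs (median -0.04). Among the receptors, ACVR1B, an activin type I receptor, read 5.37, 5.30, 5.44 and 5.32 with and 5.12, 5.14, 5.13 and 5.25 without the RUNX3 shRNA, with no overlap (estimate 0.20, limma adjusted p = 0.443). TGFBR1, the type I receptor for TGF-beta, had an estimate of -0.13 and the signal transducer SMAD2 one of -0.04. The target ID1 (-0.25) and the feedback inhibitors SMAD7 (0.15) and SKIL (-0.20) did not keep 1 direction. Among the 8 tested RUNX and core-binding factor genes, RUNX3 and CBFB were the 2 lower in all pairs, and none was higher.

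Immune lists leaned higher mainly in the pair of shRUNX1+shRUNX3 and the array labelled shRUNX1. There the median difference was 0.30 for antigen presentation, 0.25 for leukocyte adhesion, 0.23 for monocyte and macrophage genes, 0.21 for cytokine and growth factor receptors and 0.17 for interferon-stimulated genes, beside 0.01 for all genes. In the pair of shRUNX2+shRUNX3 and shRUNX2 the same 5 medians were -0.03, -0.13, -0.14, -0.07 and -0.18. Without the array labelled shRUNX1 the median RUNX3 estimates of these lists were 0.09, 0.06, -0.01, -0.03 and -0.04, beside 0.10, 0.14, -0.04, 0.01 and 0.07 with it. Over all 4 pairs 3 of 14 antigen presentation genes were higher, beside 8.06% of all genes, and none was lower. They were the immunoproteasome subunits PSMB9 (0.25) and PSMB8 (0.16) and the invariant chain CD74 (0.20). PSMB9 differed by 0.10, 0.01, 0.69 and 0.19, PSMB8 by 0.06, 0.00, 0.34 and 0.25, and CD74 by 0.05, 0.07, 0.65 and 0.03. Each differed most in the pair with the array labelled shRUNX1. IL6R, the interleukin 6 receptor, was the 1 of 13 cytokine receptors in 1 direction (0.21), and of 13 adhesion genes it was ITGA4 alone. The receptors had a median interaction of 0.33, with 5 of 13 at an unadjusted p under 0.05 and positive, beside 6.1% of all genes, among them CSF2RA (0.58) and IL10RA (0.47). Without the array labelled shRUNX1 that median was 0.20, with 3 of 13. Of 12 monocyte and macrophage genes none kept 1 direction, and the integrin subunit ITGAM (estimate 0.15) had pair differences of -0.05, -0.16, 0.34 and 0.46. Among 12 interferon-stimulated genes ISG15 (0.13) and MX1 (0.11) were higher and OAS1 (-0.26) and XAF1 (-0.19) lower. OAS1 lay at 2.51 to 3.01 on the 8 knockdown arrays, under the filter, and passed through the DMSO array at 4.18, and MX1 lay at 2.72 to 2.95 there and passed through the Chb-M' array at 3.82.

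In stress and metabolic lists few genes kept 1 direction over the 4 pairs. GSR, glutathione reductase, was higher in all 4 pairs (estimate 0.25, pair differences 0.20 to 0.32), with SRXN1 (0.13) the other of 18 NRF2 genes. EDEM1 (0.29) and DNAJB9 (0.19), which act in endoplasmic reticulum protein quality control, were the 2 of 15 unfolded protein response genes in 1 direction. PGK1, a glycolytic enzyme often used as a control gene, read 6.43, 6.45, 6.49 and 6.54 with and 6.82, 6.72, 6.81 and 6.69 without the RUNX3 shRNA. Its groups did not overlap (estimate -0.29, limma adjusted p = 0.334). With ACTB (-0.18) and GUSB (-0.07) it made 3 of 9 housekeeping genes lower in all 4 pairs, beside 7.27% of all genes. GUSB differed by only -0.01, -0.00 and -0.03 in 3 of the pairs. Beside PGK1, PFKL (-0.08) was the other of 16 glycolysis genes in 1 direction. In the ATF4 list 1 of 21 genes was lower in all 4 pairs, DDIT4 (-0.12). In the pair of shRUNX1+shRUNX3 and the array labelled shRUNX1, however, 19 of the 21 were lower, beside 5562 of all 12147 genes. The median of the 21 in that pair was -0.31. The list's median interaction was -0.34, with 6 of 21 negative at an unadjusted p under 0.05, and -0.17 with 3 of 21 without that array, beside 6.61% of all genes. The serine synthesis enzyme PHGDH had pair differences of -0.14, 0.38, -1.40 and -0.28. Of 18 cholesterol and fatty acid genes only the isoprenoid enzyme IDI1 (-0.24) kept 1 direction, and the list median was -0.11. Negative estimates were found for 14 of the 18, beside 5819 of all 12147 genes. Of these 14, 4 had an unadjusted p under 0.05, beside 4.82% of all genes. In the pair with the array labelled shRUNX1, 16 of the 18 were lower, beside 5562 of all 12147 genes. Without that array the median estimate was -0.09.

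The Fanconi and excision repair list had 4 of 19 genes lower in all 4 pairs and none higher (median -0.15, or -0.12 without the array labelled shRUNX1). The 4 were FANCM (-0.47), FANCL (-0.18), PALB2 (-0.14) and RAD51C (-0.06), all of the interstrand crosslink repair pathway, which the list was drawn up to cover. In the pairs without the RUNX1 shRNA RAD51C differed by only -0.00 and -0.02, and PALB2 by -0.12 and -0.02. Of the 19, 8 had a negative interaction at an unadjusted p under 0.05, such as BRIP1 (-0.72) and UBE2T (-0.78). Over all genes these shares were 7.27% and 6.61%, and without the array labelled shRUNX1 the interaction count was 6 of 19. FANCM differed by -0.43, -0.08, -1.15 and -0.20 in the 4 pairs. Among 17 cyclin-dependent kinase inhibitors and p53 targets CDKN2A (-0.14) and RRM2B (-0.11) were lower. KLF2 (-0.25) was the 1 of 18 myeloid and stem cell transcription factors, and differed by -0.00 in the pair with the array labelled shRUNX1. Of the remaining lists, LAMP1 (0.24) was higher and MCOLN1 (-0.12) lower among 17 lysosome genes, NFKB1 (0.11) was higher and TNF (-0.20) lower among 14 inflammatory genes, and NDUFB5 (0.19) and COX4I1 (0.05) were higher among 15 respiratory chain genes. JUNB (0.05) was the 1 of 16 immediate early genes and BCL2L11 the 1 of 12 BCL2 family genes. None of the 16 MYC targets and ribosome biogenesis genes kept 1 direction.

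**Figure D5:**
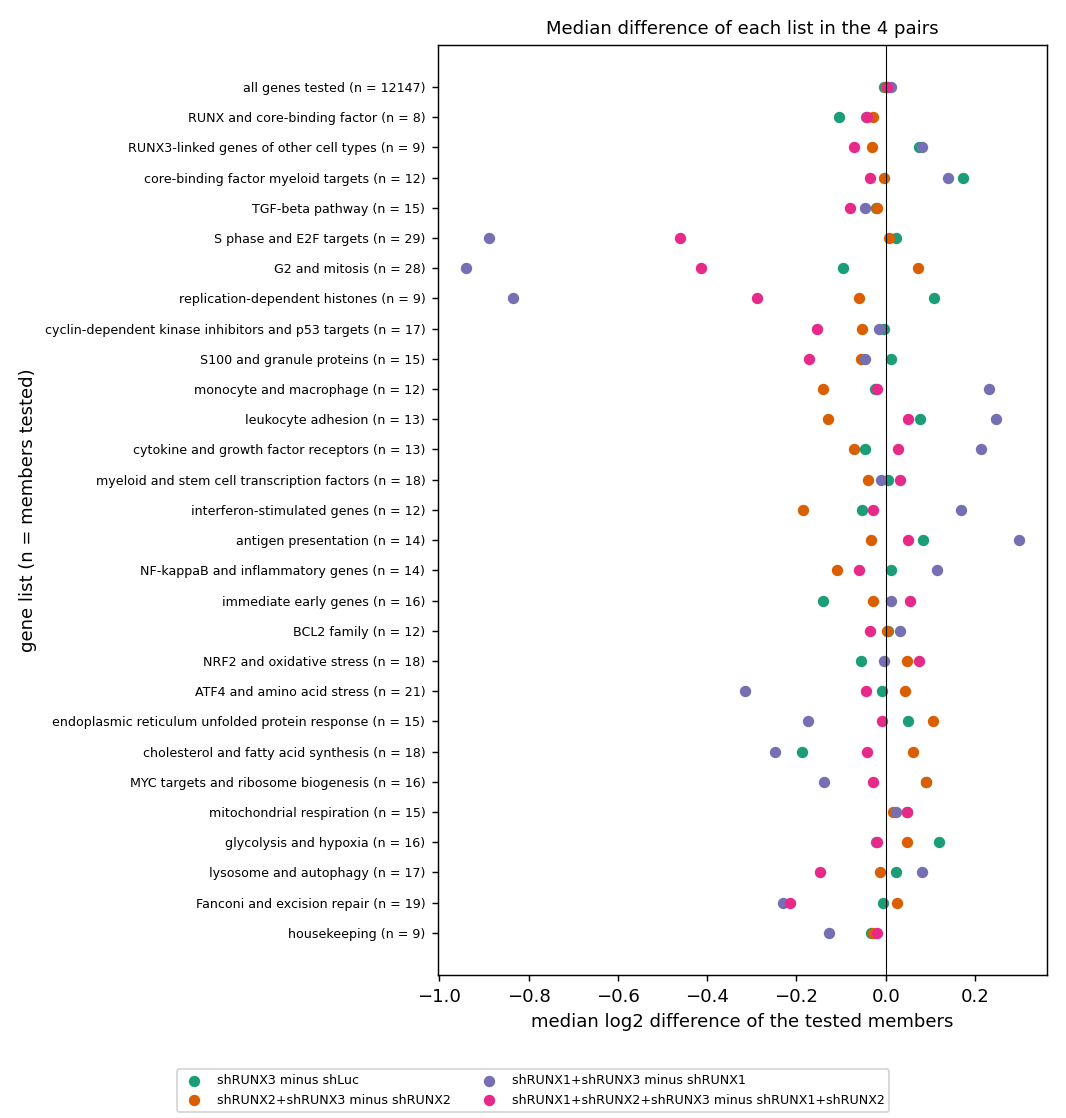
Median log2 difference, array with the RUNX3 shRNA minus its partner without it, over the tested members of each gene list (rows) in the 4 pairs (colours), with all genes tested in the top row. The pair of shRUNX1+shRUNX3 and shRUNX1 stands farthest from 0 in most lists, and the S phase, mitosis and histone lists lie lowest, at -0.89, -0.94 and -0.84 in that pair.

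The SD of the differences over genes was 0.202 between shRUNX3 and shLuc, 0.192 between shRUNX2+shRUNX3 and shRUNX2, 0.316 between shRUNX1+shRUNX3 and shRUNX1, and 0.242 between the triple knockdown and shRUNX1+shRUNX2. Pearson correlations across the 12147 genes between pairs, which share no array, ran from -0.10 to 0.30, as a description only because genes are not independent replicates. The highest was between the 2 pairs with the RUNX1 shRNA. At least 2-fold differences, with no replicate check, were seen in 9 higher (0.0741%) and 18 lower genes (0.148%) for shRUNX3, 3 (0.0247%) and 7 (0.0576%) for shRUNX2+shRUNX3, 39 (0.321%) and 126 (1.04%) for shRUNX1+shRUNX3, and 14 (0.115%) and 20 (0.165%) for the triple knockdown, each against its partner.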

How the data were processed

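Total RNA of 11 MV4-11 cultures was measured on Affymetrix arrays, and the deposited log2 values per transcript cluster were used as given. Per the submitters' processing notes, RMA, Affymetrix Expression Console 1.3.1 and Transcriptome Analysis Console 1.0 were used, while no genome build is named there. Of 53617 clusters, 23558 had 1 gene symbol, 2155 several and 27904 none listed, and 22271 matched RefSeq. They gave 22109 genes, of which 618 had several clusters and were read on the cluster of highest mean level. A level of 3.80 or more on at least 1 of the 11 arrays was asked of each gene tested (12147), so a gene could pass through the group where it was high.

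Using limma 3.58.1 (R 4.3.3), a model was fitted to the 8 knockdown arrays with 1 term for each RUNX shRNA (4 residual degrees of freedom), and with a RUNX1 by RUNX3 term for the interaction. Benjamini-Hochberg adjustment ran over all genes tested, with a threshold of 0.05, and the fit was tested on simulated data. The 4 RUNX family levels had exact permutation tests and sign-flip tests over the 4 pairs. The members and the 28 gene lists were chosen with earlier results of these data known. Genes named are RUNX1, RUNX2, RUNX3 and CBFB, the 14 per direction with the largest smallest-pair difference, the 5, 6 and 4 per direction of smallest p for the RUNX3 term, the interaction and the contrast, and of each list the 3 most negative and 3 most positive estimates and members in 1 direction where at most 8. Small RNAs, receptor segments, uncharacterised loci and pseudogenes were counted but not named. Other filters, scalings, fits and left-out arrays were tried as alternatives. Precision is limited by the number of arrays.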

Additional observations from a re-analysis of the deposited data

Results flagged for a closer look

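In 64 groups of 4 arrays, 1 array stood far from the other 3 in 5 cases by Dixon's criterion (0.829), which chance meets in about 1 group in 20. The arrays of a group are different conditions, not replicates. TMT1B read 6.86 on shRUNX1+shRUNX2, against 6.35 to 6.41 on the other 3 arrays without the RUNX3 shRNA. PITPNC1 read 7.97 on the array labelled shRUNX1, where the other 3 lay at 8.32 to 8.37. FZD6 read 4.83 on shRUNX2, with 5.12 to 5.17 on the others. F3 read 6.35 on the array labelled shRUNX1, with 7.0 to 7.06 on the others. STK38 read 6.72 on shRUNX1+shRUNX3, with 6.44 to 6.46 on the other 3 arrays with the RUNX3 shRNA.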

How the results depend on the processing

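The count of genes moving the same way in all 4 pairs, 1862, became 2901 with no filter on level, 362 at 0.1 and 76 at 0.2 log2 units in every pair, and 2851 to 3609 over the 3 pairs left when an array was left out. With an array left out, limma called 0 to 1 genes for the RUNX3 shRNA, 0 for the interaction and 0 to 1 for the RUNX3 minus RUNX1 contrast. The calls were ANKFN1 without shRUNX2 (contrast -3.55, SE 0.134, adjusted p = 0.00157) and, for the contrast without shRUNX1+shRUNX3, SMIM14 (-1.14, SE 0.0762, adjusted p = 0.0382), which was named after its values were seen. Genes at an unadjusted p under 0.05 went down to 701 for the RUNX3 shRNA without the triple knockdown. For the contrast they were 1860 without the array labelled shRUNX1 and 1365 with no filter. The RUNX3 level difference ran from -0.52 without the array labelled shRUNX1 to -0.29 without shRUNX1+shRUNX2, with that first array singled out by its level. Over left-out arrays, the mitosis list's median interaction ran from -0.89 to -0.47, with 9 to 26 genes at an unadjusted p under 0.05 (9 without shRUNX2+shRUNX3, 10 without shRUNX2 or shRUNX1+shRUNX3). In the other settings limma called 0 genes, with smallest adjusted p of 0.0838 for the RUNX3 shRNA (moderation with a trend) and 0.425 with the pair of conditions as a block (932 genes at an unadjusted p under 0.05). The SMAD4 estimate was 0.08 as a mean over clusters and -0.16 otherwise. Of the 28 consistent genes, ALDH3B2 (-1.07) reached -0.43 without shRUNX2 and F3 (-0.63) reached -0.41 without shRUNX1+shRUNX2, both over 1.5 times. Of 231 named genes 34 changed sign somewhere. The 28 were chosen for 1 direction on these arrays, so their signs say nothing of stability. The causes were not tested. Beyond that block of conditions, no blocking by replicate number could be made. Arrays could be paired by condition but not by replicate number, because the labels give each condition a single replicate number.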

Other observations

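Of the genes tested on each chromosome, the share in 1 direction over all 4 RUNX3 pairs lay between 12.4% (chromosome 8) and 21.3% (chromosome 18).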
